A study of Mus musculus with 12 samples.

Results

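The S100 calcium-binding proteins were followed as 10 genes, S100a1, S100a4, S100a6, S100a8, S100a9, S100a10, S100a11, S100a13, S100a16 and S100b, of 21930 genes in the deposited count table. The members were chosen by name with earlier results of these data known, so their values are given as a description and support no statement on the family as a whole. RNA-seq was carried out on the eyes of 12 male wild type C57BL/6J mice, 3 in each of 4 groups. AL + PBS mice ate ad libitum and received an intraperitoneal injection of PBS. IF + PBS mice were kept on alternate-day fasting for 12 weeks and received the same vehicle. In each of the 4 groups the 12 weeks of diet began at the age of 8 weeks. AL + NaIO3 mice ate ad libitum and IF + NaIO3 mice fasted on alternate days, and both received a single intraperitoneal injection of 25 mg/kg NaIO3 after the 12 weeks of diet. Tissue was taken 7 days after injection in each group, and the diets were continued until then. NaIO3 is an oxidant that injures the retinal pigment epithelium (RPE) first and the photoreceptors after it. It is a chemical model of acute injury, and only males were used.

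The tissue is named as a complex of RPE, choroid and sclera in the labels and as eye cups in the methods. A list of 8 photoreceptor markers summed to 18244 to 59826 CPM (counts scaled to library size, without regard to gene length) in the 12 libraries, and the defining marker of the RPE, Rpe65, was at 39.6 to 145 CPM, so retina and RPE were both present. Totals were between 26364665 and 43046950 counts per library. Libraries of AL + NaIO3 differed most among themselves. Replicate 3 had 1393 CPM summed over 7 markers of choroid and sclera stroma, against 74.0 to 226 CPM in the other 11 libraries, and replicate 2 had 690 CPM over 8 markers of the corneal and conjunctival surface, against 10.3 to 201 CPM elsewhere.

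S100 proteins are small proteins with EF-hand calcium sites that act as dimers. On binding calcium most of them expose a surface that grips target proteins, such as annexins and myosin inside the cell, and some are released and bind the receptor for advanced glycation end products (Ager) or Tlr4. In the eye S100b is known from astrocytes and Müller cells, S100a8 and S100a9 from neutrophils and monocytes, and S100a4, S100a6, S100a10 and S100a11 from fibroblasts, epithelia and reactive cells.

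Most S100 genes of mammals lie in clusters. Of the 10 genes, 9 are on chromosome 3 and S100b is on chromosome 10 (GRCm38 coordinates, 76253853 to 76261159). From S100a1 (90511034 to 90514392) to S100a9 (90692632 to 90695721) 7 of them span 184688 bases. S100a11 (93520488 to 93526287) and S100a10 (93555080 to 93564643) stand 28792 bases apart, beyond a gap of 2824766 bases. S100a6 is at 90612882 to 90624181 (ENSMUSG00000001025), 6836 bases from the end of S100a4. S100a1 and S100a13 lie 42 bases apart in the deposited annotation and are read in opposite directions.

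The start regions of 4 genes are shown from RefSeq on GRCm38.p6, each from 250 bases before to 50 bases after the start site and 300 bases long, because these genes had the largest fitted changes (S100a6, S100a4 and S100a11) or share their start region (S100a13 with S100a1). RefSeq entries were matched for 9 of the 10 genes, all but S100a10. In the S100a6 window, chr3:90612644-90612943 on the plus strand, capitals mark the single match to an NF-kB-type pattern (GGG, any 5 bases, CC). In the S100a11 window, chr3:93520246-93520545 on the plus strand, they mark matches to the AP-1 motif, TGANTCA, which is its own reverse complement. In the S100a4 window, chr3:90603520-90603819 on the plus strand, they mark the TATA box, TATAAA. In the S100a13 window, chr3:90514185-90514484 on the plus strand, they mark the bases from the start site of S100a1, which is read leftwards, to the start site of S100a13.
S100a6: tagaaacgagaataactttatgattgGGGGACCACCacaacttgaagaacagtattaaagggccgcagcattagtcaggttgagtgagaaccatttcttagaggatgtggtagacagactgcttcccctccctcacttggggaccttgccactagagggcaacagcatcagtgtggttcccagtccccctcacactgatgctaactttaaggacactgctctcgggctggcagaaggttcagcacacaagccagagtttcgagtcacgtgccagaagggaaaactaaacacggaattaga
S100a11: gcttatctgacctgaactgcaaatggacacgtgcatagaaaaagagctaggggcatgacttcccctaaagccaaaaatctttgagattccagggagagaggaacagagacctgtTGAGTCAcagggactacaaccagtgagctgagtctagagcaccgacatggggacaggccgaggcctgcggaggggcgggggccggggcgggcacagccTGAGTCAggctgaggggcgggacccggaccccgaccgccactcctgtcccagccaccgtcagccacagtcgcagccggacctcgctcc
S100a4: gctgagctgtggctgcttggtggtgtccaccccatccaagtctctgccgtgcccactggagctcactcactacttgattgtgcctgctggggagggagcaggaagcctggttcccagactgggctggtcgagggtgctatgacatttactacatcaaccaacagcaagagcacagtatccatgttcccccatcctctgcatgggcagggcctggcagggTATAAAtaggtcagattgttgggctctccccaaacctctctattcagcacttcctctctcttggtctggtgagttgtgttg
S100a13: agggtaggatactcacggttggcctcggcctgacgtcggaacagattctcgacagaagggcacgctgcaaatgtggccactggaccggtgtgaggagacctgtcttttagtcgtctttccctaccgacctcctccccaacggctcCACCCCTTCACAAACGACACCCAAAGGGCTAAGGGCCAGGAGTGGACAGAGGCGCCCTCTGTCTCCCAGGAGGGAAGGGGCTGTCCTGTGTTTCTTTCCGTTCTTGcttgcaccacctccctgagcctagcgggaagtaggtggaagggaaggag

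Each motif was searched on both strands, and overlapping matches were counted apart. S100a11 had 2 AP-1 matches, beginning at 136 and 38 bases before its start site. Of 32851 RefSeq promoters of the same length 7.81% held at least 1 such match and 0.460% held 2 or more. The second start region listed for S100a16 held 1, and the windows of the other 7 genes with an entry held none. The NF-kB-type letters are frequent, with a match in 50.8% of promoters and 2 or more in 27.4%. S100a6 held 1, S100a4 held 3, S100a11 held 4, and S100a1 and S100a13 held 2 each. The S100a16 windows held 5 and 1, and S100a8, S100a9 and S100b held none. TATAAA stood 31 bases before the start of S100a4, 30 bases before that of S100a8 and at the start of S100a9, against 13.6% of promoters with a match anywhere in the window. The C/EBP motif TTNNGNAA was found in S100a8 (1 match) and S100a9 (2 matches) among the listed genes and in 40.7% of promoters. No listed gene held the STAT motif TTCNNNGAA (8.30% of promoters). S100a4, the first S100a16 window and S100b held the antioxidant response letters TGANNNNGC, which 41.3% of promoters held. These matches describe letters in the window and were not tested as binding sites. The start sites of S100a1 and S100a13 are 105 bases apart and their windows share 204 bases, with 11 and 14 CG pairs against a median of 7 over all promoters.

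Levels were compared between genes in FPKM, which the authors divided by gene length. In AL + PBS S100a1 was the most abundant at 36.2 ± 3.10 FPKM (SD, n = 3), above S100a10 (29.8 ± 3.49) without overlap of the libraries. S100a16 followed at 24.3 ± 2.83 FPKM, and its libraries overlapped those of S100a10. S100b (15.3 ± 0.693 FPKM), S100a6 (14 ± 3.04) and S100a11 (10.7 ± 1.17) formed a middle range, in which neighbours in the order overlapped. S100a13 (3.87 ± 1.08 FPKM) and S100a4 (3.34 ± 0.472) were low and overlapped each other. S100a9 (0.595 ± 0.242 FPKM) and S100a8 (0.394 ± 0.111) were lowest and also overlapped. In AL + NaIO3 the upper order changed. S100a10 stood at 62.9 ± 8.21 FPKM, S100a6 at 60.4 ± 18.7, S100a1 at 59.3 ± 18.5 and S100a16 at 47.7 ± 18.4, and the libraries of these 4 genes overlapped. S100a6 thus ranked between 1 and 3 of the 10 genes in AL + NaIO3, between 4 and 5 in AL + PBS, between 5 and 6 in IF + PBS and between 3 and 6 in IF + NaIO3. Expressed as FPKM, S100a6 was at 8.87 ± 2.45 in IF + PBS and 18.7 ± 11.7 in IF + NaIO3.

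**Figure D1:**
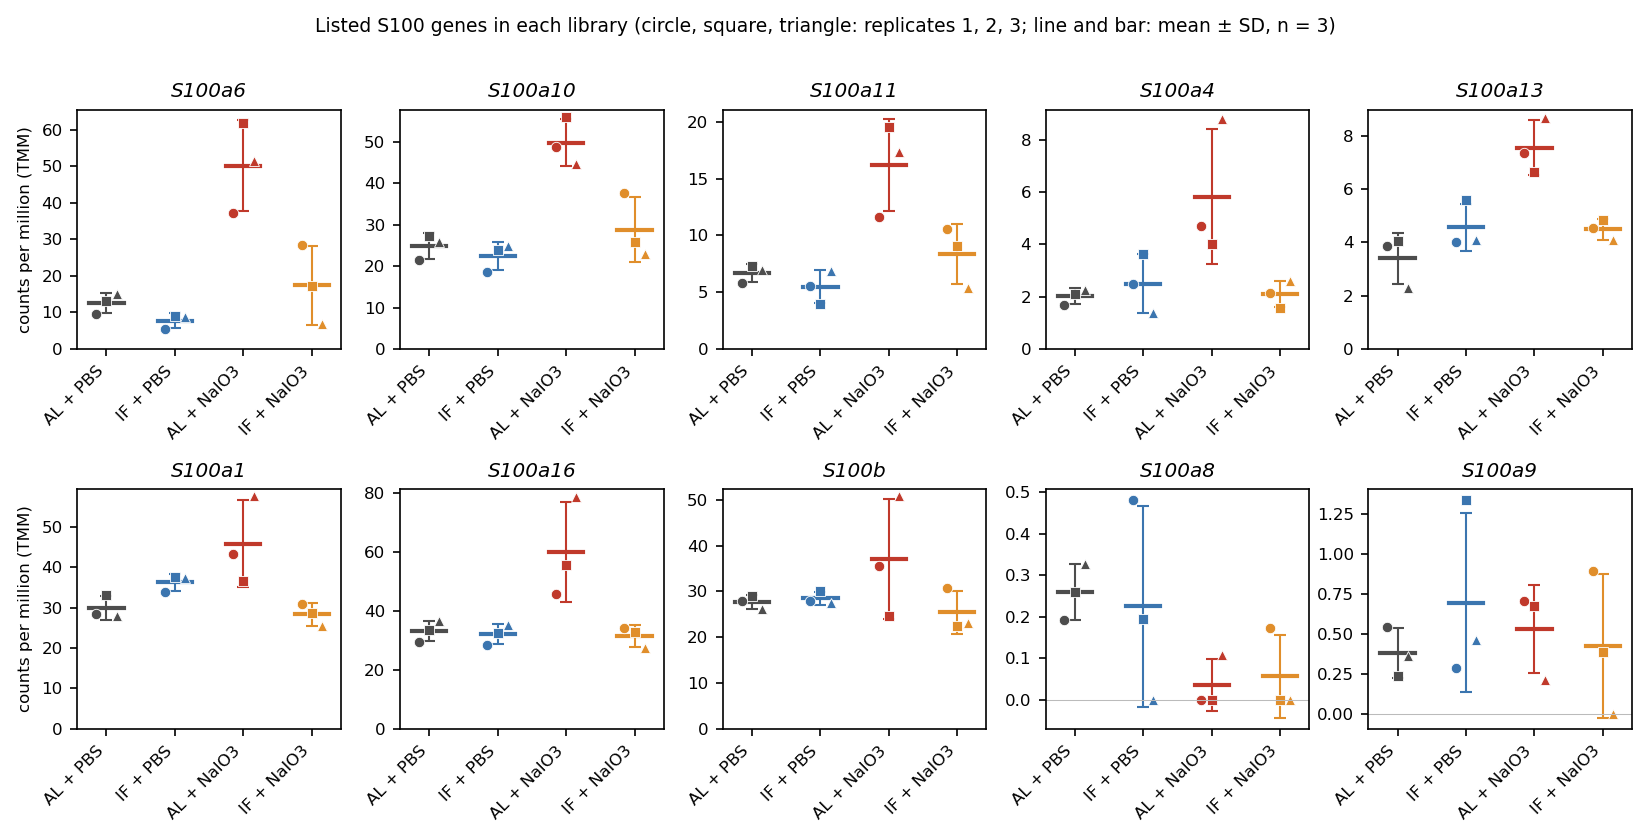
CPM on TMM-scaled library sizes (y axes, from 0 except where an SD bar reaches below it) of the 10 listed S100 genes in the 4 groups (x axes), with points for libraries and lines and bars for mean ± SD (n = 3). AL + NaIO3 libraries of S100a6 sit between 37.1 and 62.0 CPM, above each library of the other groups, while S100a8 and S100a9 stay at or below 1.33 CPM.

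The first comparison asked how the genes differed 7 days after NaIO3 on the unrestricted diet (AL + NaIO3 compared to AL + PBS). S100a6 rose 4.03-fold and was the only listed gene called by edgeR in the fit of these 6 libraries. Fitted log2 fold changes of the 9 genes that passed the low-count filter were all above 0, with a median of 1.01 against 0.014 over the 15612 genes tested. In 7 of the 9, namely S100a1, S100a4, S100a6, S100a10, S100a11, S100a13 and S100a16, each AL + NaIO3 library was above each AL + PBS library. Over all genes tested 9.80% were separated in that direction, and 0.0769% were called by edgeR, which took a change of at least 1.5-fold in either direction with an adjusted p below 0.05. An unadjusted p under 0.05 was reached by 7 of the 9 genes and by 10.2% of all genes. Since the members were named from results of these data, nothing is read from their count. In RNA of whole tissue, more (or fewer) cells of a type and more (or less) RNA per cell cannot be told apart.

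Among the annexin-binding members, S100a6 (calcyclin) had 9.59, 13 and 14.9 CPM in AL + PBS and 37.1, 62.0 and 51.4 CPM in AL + NaIO3. The groups did not overlap, and the lowest NaIO3 library was far above the highest PBS library. Its log2 fold change was 2.01 (standard error, SE, 0.24, quasi-likelihood test of edgeR, adjusted p = 0.0476). The adjusted p lay close to the threshold. It was 0.271, 0.351 or 0.337 without AL + PBS replicate 1, 2 or 3 and 0.149 without AL + NaIO3 replicate 2, while the log2 fold change stayed between 1.83 and 2.18 over all alternatives run. Without any single AL + PBS library edgeR called 0 genes of the whole table, and without AL + NaIO3 replicate 2 it called 5.

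S100a10 (p11), which pairs with annexin A2 and binds no calcium itself, had 21.5, 27.3 and 25.9 CPM in AL + PBS and 48.9, 56.0 and 44.8 CPM in AL + NaIO3. Both groups were tight and did not overlap. The log2 fold change of 1.01 had the smallest SE of the 9 genes, 0.15, and an adjusted p of 0.0873 from edgeR. S100a11 (calgizzarin), a partner of annexin A1 in membrane repair, had 5.84, 7.30 and 6.94 CPM in AL + PBS and 11.7, 19.5 and 17.4 CPM in AL + NaIO3. The groups were separate here too, with a log2 fold change of 1.28 (SE 0.24, edgeR adjusted p = 0.172). S100a6, S100a10 and S100a11 shared their highest library, AL + NaIO3 replicate 2.

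S100a4 (metastasin), which binds non-muscle myosin and is abundant in fibroblasts and macrophages, had 1.67, 2.10 and 2.26 CPM in AL + PBS and 4.69, 4.01 and 8.78 CPM in AL + NaIO3. The groups did not overlap, and replicate 3 was well above the other NaIO3 libraries. Its log2 fold change was 1.54 (SE 0.39, edgeR adjusted p = 0.265). S100a13, which takes part in the export of Fgf1 and Il1a without a signal peptide, had 3.85, 4.04 and 2.29 CPM in AL + PBS and 7.35, 6.64 and 8.65 CPM in AL + NaIO3. The groups did not overlap, and the log2 fold change was 1.16 (SE 0.31, edgeR adjusted p = 0.284).

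S100a1, known from muscle, where it acts on calcium release, had 28.3, 33.2 and 28.0 CPM in AL + PBS and 43.3, 36.6 and 57.7 CPM in AL + NaIO3. The gap between the groups was small and replicate 3 was highest (log2 fold change 0.63, SE 0.18, edgeR adjusted p = 0.319). S100a16, a widely expressed member, had 29.4, 33.4 and 36.5 CPM in AL + PBS and 45.7, 55.6 and 78.6 CPM in AL + NaIO3, again without overlap (log2 fold change 0.86, SE 0.21, edgeR adjusted p = 0.259). S100b, the glial member, had 27.9, 29.0 and 26.0 CPM in AL + PBS and 35.6, 24.6 and 50.8 CPM in AL + NaIO3. Its groups overlapped, since AL + NaIO3 replicate 2 was below each control library (log2 fold change 0.43, SE 0.24, edgeR adjusted p = 0.590). S100a1, S100a4, S100a13, S100a16 and S100b, 5 of the 10 genes, shared their highest library, AL + NaIO3 replicate 3.

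S100a8 and S100a9, the subunits of calprotectin, were close to the limit of counting. S100a8 had 6, 11 and 10 counts in AL + PBS and 0, 0 and 4 counts in AL + NaIO3, did not pass the filter in any comparison and has no test. Its AL + NaIO3 libraries were each below the AL + PBS libraries, by a handful of counts. S100a9 had 0.545, 0.236 and 0.360 CPM in AL + PBS and 0.706, 0.675 and 0.215 CPM in AL + NaIO3, and the groups overlapped (log2 fold change 0.48, SE 0.65, edgeR adjusted p = 0.841). A count of 0 allows up to 3 counts, or 0.0708 to 0.107 CPM over the 12 libraries, from counting error alone. Of the 11 neutrophil markers, Stfa2l1 was at 0 in each library and the defining marker Ly6g had 2 counts in 1 library and 0 in the other 11. Csf3r, the one neutrophil marker that passed the filter here, had 0.770 to 1.75 CPM in AL + PBS and 3.47 to 6.31 CPM in AL + NaIO3 (log2 fold change 1.87). DESeq2 called Csf3r here, in IF + NaIO3 against AL + NaIO3 and in the interaction, and edgeR in none of the 3. The other 10 markers summed to 0.295 to 0.898 CPM in AL + PBS and 0.674 to 1.29 CPM in AL + NaIO3, and overlapped.

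**Figure D2:**
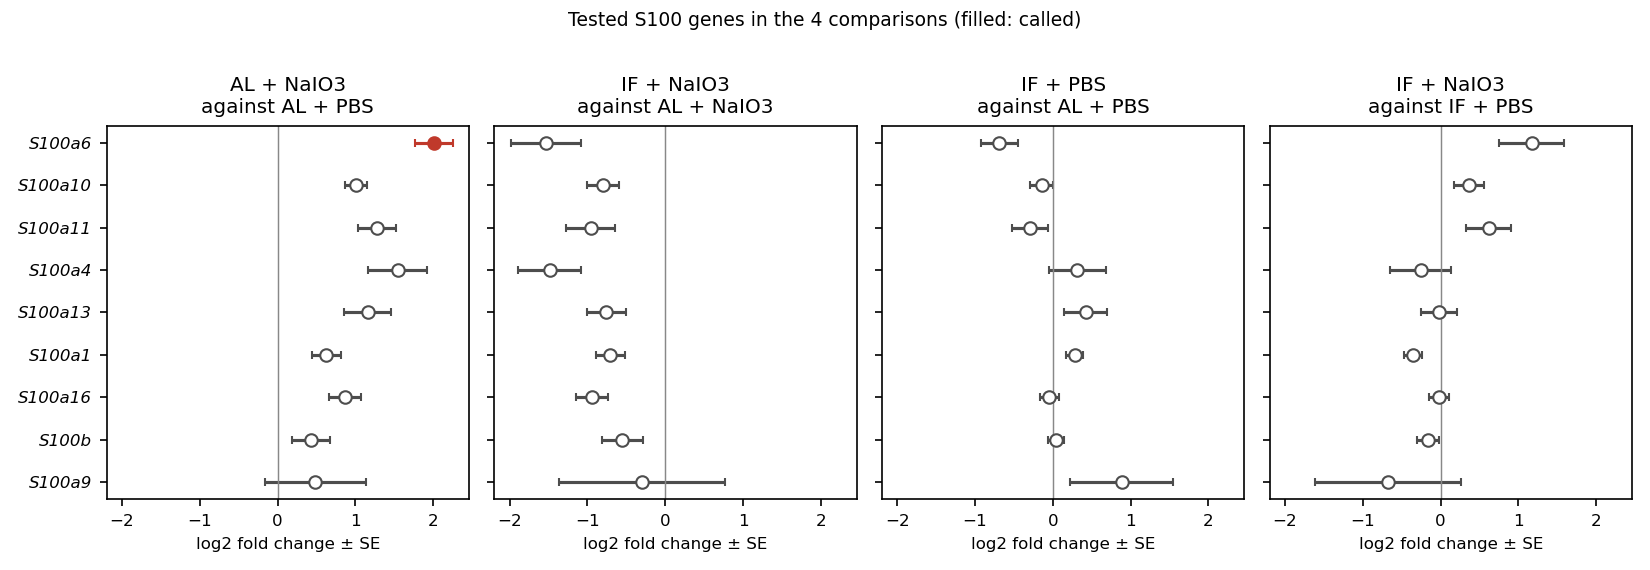
Log2 fold change ± standard error from edgeR (x axes) of the 9 tested S100 genes (y axis) in the 4 comparisons, filled where called. Values lie above 0 for each of the 9 in AL + NaIO3 against AL + PBS and below 0 for each in IF + NaIO3 against AL + NaIO3, and only S100a6 at 2.01 is called by edgeR.

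The second comparison asked how the genes differed after NaIO3 between the diets (IF + NaIO3 compared to AL + NaIO3). None of the 9 tested genes was called by edgeR, where 0.0383% of 15648 genes were called, although 7 had an unadjusted p under 0.05, as had 11.7% of all genes. DESeq2 called 5 of the 9 and 3.05% of all genes, and the fit of the 12 libraries together called S100a1 and S100a16 and 1.19% of all genes. The 9 fitted log2 fold changes were below 0, with a median of -0.80 against -0.013 over all genes tested. The same 7 genes as above did not overlap between the groups, each lower in IF + NaIO3, as were 10.2% of all genes tested. This comparison shares the AL + NaIO3 libraries with the first, so a library that was high there is high here as well.

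S100a6 had 28.4, 17.1 and 6.75 CPM in IF + NaIO3. Its libraries spread widely, and the highest stayed below the lowest AL + NaIO3 library (log2 fold change -1.53, SE 0.45, edgeR adjusted p = 0.293). S100a10 had 37.6, 25.9 and 22.9 CPM (log2 fold change -0.80, SE 0.20, edgeR adjusted p = 0.238). S100a11 had 10.6, 9.12 and 5.41 CPM (log2 fold change -0.96, SE 0.31, edgeR adjusted p = 0.324). In these 3 genes the libraries of IF + NaIO3 kept 1 order, with replicate 1 highest and replicate 3 lowest.

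S100a4 had 2.13, 1.57 and 2.58 CPM in IF + NaIO3, which overlapped AL + PBS (log2 fold change -1.48 against AL + NaIO3, SE 0.41, edgeR adjusted p = 0.259). S100a13 had 4.55, 4.85 and 4.06 CPM (log2 fold change -0.76, SE 0.25, edgeR adjusted p = 0.338). Each library of both genes was below each AL + NaIO3 library. S100a1 had 30.9, 28.6 and 25.4 CPM (log2 fold change -0.70, SE 0.19, edgeR adjusted p = 0.251). S100a16 had 34.2, 32.9 and 27.3 CPM and the smallest adjusted p of the 9 genes, 0.201 from edgeR, at a log2 fold change of -0.94 (SE 0.21). In both genes replicates 1 and 2 lay within the range of AL + PBS and replicate 3 below it. S100b (30.8, 22.3 and 23.1 CPM, log2 fold change -0.55, edgeR adjusted p = 0.466) overlapped AL + NaIO3. S100a9 was at 0.892, 0.386 and 0 CPM with a log2 fold change of -0.30 and a SE of 1.07, and S100a8 had 6, 0 and 0 counts.

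Between the diets after PBS (IF + PBS compared to AL + PBS) edgeR called no gene, 0% of 15361, with 2 of the 9 S100 genes and 17.1% of all genes at an unadjusted p under 0.05. DESeq2 called no listed gene and 1.25% of all genes. S100a6 was at 5.34, 9.11 and 8.77 CPM in IF + PBS, each below AL + PBS (log2 fold change -0.69, SE 0.24, edgeR adjusted p = 0.217). S100a1 was at 33.7, 37.7 and 37.3 CPM, each above AL + PBS (log2 fold change 0.28, SE 0.11, edgeR adjusted p = 0.245). Over all genes 11.6% were separated downwards in this way and 10.3% upwards, which is near 1 of the 9 tested S100 genes in each direction. The other tested genes overlapped, with log2 fold changes between -0.29 for S100a11 and 0.88 for S100a9, whose SE was 0.66. S100b was nearly level at 27.8, 30.1 and 27.5 CPM, and so was S100a16 at 28.4, 32.4 and 35.2 CPM. S100a10 had 18.6, 23.9 and 24.9 CPM and S100a11 5.54, 3.97 and 6.88 CPM, each below the middle library of AL + PBS. S100a4 (2.50, 3.65 and 1.36 CPM) spread more widely than in AL + PBS, and S100a13 had 4.0, 5.57 and 4.09 CPM. S100a8 had 15, 6 and 0 counts and S100a9 9, 41 and 15 counts in IF + PBS, which held the highest library of both genes.

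The effect of NaIO3 on the fasting diet (IF + NaIO3 compared to IF + PBS) was also without a call by edgeR, 0% of 15305 genes, with 2 of the 9 S100 genes and 15.2% of all genes at an unadjusted p under 0.05. DESeq2 called none of the 9 and 0.470% of all genes. The genes differed in direction. S100a6 had a log2 fold change of 1.17 (SE 0.42, edgeR adjusted p = 0.251), with IF + NaIO3 replicate 3 inside the range of IF + PBS, and S100a11 had 0.62 and S100a10 0.36. The values of S100a13, S100a16, S100b and S100a4 were between -0.25 and -0.02, and S100a9 had -0.67. S100a1 was lower in each IF + NaIO3 library than in each IF + PBS library, as were 10.7% of all genes (log2 fold change -0.36, SE 0.11, edgeR adjusted p = 0.226).

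The difference of the NaIO3 effect between the diets was tested as an interaction over the 12 libraries. No listed gene was called by edgeR, where 0.0313% of 15970 genes were called, while 5 had an unadjusted p under 0.05, as had 1910 (12%) of all genes. DESeq2 called S100a1 and 1.33% of all genes, and edgeR without AL + NaIO3 replicate 1 called S100a1, S100a16 and 2.24% of all genes. The 9 fitted values were below 0, with a median of -0.88 against -0.022 over all genes. S100a1 had the smallest adjusted p, 0.177 from edgeR, at a log2 difference of -0.97 (SE 0.22). S100a4 had the largest difference, -1.79, with a SE of 0.56 and an adjusted p of 0.286 from edgeR. The value of S100a6 was -0.83 with a SE of 0.55 (edgeR adjusted p = 0.541), so its change was not shown to differ between the diets.

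The calls moved with the method. In AL + NaIO3 against AL + PBS, DESeq2 called 6 of the listed genes (S100a4, S100a6, S100a10, S100a11, S100a13 and S100a16) and 2.63% of all genes. The fit of the 12 libraries together called S100a6, S100a10 and S100a16 and 1.11% of all genes. Without AL + NaIO3 replicate 3, edgeR called S100a6 and S100a10 and 0.572% of all genes.

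Some cell type markers moved with the S100 genes and others did not, and their part in the differences was not tested. The 8 surface epithelium markers summed to 48.9 to 99.3 CPM in AL + PBS, 10.3 to 28.3 in IF + PBS, 52.0 to 690 in AL + NaIO3 and 27.5 to 201 in IF + NaIO3, with the defining marker Krt12 above 0 in each library. Of the 7 tested in AL + NaIO3 against AL + PBS, 7 had a log2 fold change above 0, 2 had an unadjusted p under 0.05 (against 10.2% of all genes) and none was called by edgeR (against 0.0769% of all genes) or DESeq2 (against 2.63%). In IF + PBS against AL + PBS S100a6 had a log2 fold change of -0.69. There the 7 tested surface epithelium, 7 stroma and 7 skeletal muscle markers were each below 0. Of these, 7, 5 and 7 had an unadjusted p under 0.05 from edgeR (against 17.1% of all genes). DESeq2 called 6, 4 and 0 of them (against 1.25% of all genes), and edgeR none. Within AL + PBS, IF + PBS and IF + NaIO3 the libraries had the same order in the surface epithelium sum and in S100a6. AL + NaIO3 replicate 2 had the highest value of both, 690 CPM of these markers and 62.0 CPM of S100a6. AL + NaIO3 replicate 3, at 52.0 CPM of these markers, lay inside the range of AL + PBS and had 51.4 CPM of S100a6.

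The 7 stroma markers summed to 155 to 226 CPM in AL + PBS, 74.0 to 129 in IF + PBS, 114 to 1393 in AL + NaIO3 and 129 to 150 in IF + NaIO3, with the defining marker Col1a1 above 0 throughout. In IF + NaIO3 against AL + NaIO3 each of the 7 had a log2 fold change below 0. Each had an unadjusted p under 0.05 from edgeR, as had 11.7% of all genes. None was called by edgeR (against 0.0383% of all genes) or DESeq2 (against 3.05%). AL + NaIO3 replicates 1 and 2, at 213 and 114 CPM of stroma markers, were not above AL + PBS. They had 37.1 and 62.0 CPM of S100a6. The 12 markers of monocytes, macrophages and microglia summed to 60.5 to 67.9 CPM in AL + PBS, 51.4 to 67.0 in IF + PBS, 130 to 832 in AL + NaIO3 and 51.7 to 67.3 in IF + NaIO3, and the defining marker Aif1 was at 0 in 1 library. Of the 12, 12 had a log2 fold change above 0 in AL + NaIO3 against AL + PBS and 11 an unadjusted p under 0.05 (against 10.2% of all genes), with none called by edgeR (against 0.0769% of all genes) and 8 by DESeq2 (against 2.63%). In IF + NaIO3 against AL + NaIO3 DESeq2 called 8 of the 12 (against 3.05% of all genes) and edgeR none (against 0.0383%). The sum of the 11 neutrophil markers and the glial marker Gfap were higher in each AL + NaIO3 library than in each AL + PBS or IF + NaIO3 library. The sum of the 12 macrophage markers was separated in the same way, as were the 7 S100 genes. In IF + PBS against AL + PBS the sum of the 12 overlapped, while S100a6 and S100a1 did not. S100a1, S100a4, S100a13 and S100b had the order of libraries in AL + NaIO3 that this sum and the stroma sum had. IF + NaIO3 replicates 1 and 2 had 28.4 and 17.1 CPM of S100a6, above AL + PBS, with a macrophage sum of 67.3 and 51.7 CPM. Replicate 3 had 6.75 CPM of S100a6, below AL + PBS, with a macrophage sum of 55.6 CPM. The surface epithelium sums of IF + NaIO3 replicates 1, 2 and 3 were 201, 86.6 and 27.5 CPM.

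The 8 markers of Müller cells and astrocytes summed to 4272 to 4784 CPM in AL + PBS, 4002 to 4087 in IF + PBS, 4047 to 5133 in AL + NaIO3 and 4006 to 4132 in IF + NaIO3. The defining marker Gfap, a filament protein of reactive glia, was at 97.1 to 308 CPM in AL + NaIO3. It was at 10.7 to 23.0 CPM in the other 9 libraries. In AL + NaIO3 against AL + PBS DESeq2 called 2 of the 8, Gfap and Vim (against 2.63% of all genes), and edgeR none (against 0.0769%). Rlbp1 and Glul had log2 fold changes of -0.12 and -0.31 there, and the other markers of the list were above 0. In AL + NaIO3 S100b (35.6, 24.6 and 50.8 CPM) and Gfap (112, 97.1 and 308 CPM) had the same order of libraries. In replicate 2 Gfap was above each AL + PBS library and S100b below each. The 7 Schwann cell and myelin markers summed to 66.6 to 129 CPM in AL + NaIO3 and 74.8 to 93.8 CPM in the other groups, with replicate 3 of AL + NaIO3 highest, as for S100b, and each of the 7 markers above 0 in each library.

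The 7 skeletal muscle markers summed to 147 to 305 CPM in AL + PBS, 22.4 to 109 in IF + PBS, 95.9 to 289 in AL + NaIO3 and 60.7 to 263 in IF + NaIO3. AL + NaIO3 replicate 3, where S100a1 was highest, had the least muscle RNA of its group. The 8 photoreceptor markers summed to 51302 to 54446 CPM in AL + PBS and to 59826, 34604 and 18244 CPM in AL + NaIO3 replicates 1, 2 and 3, with 45769 to 56682 CPM in the IF libraries. The 7 RPE markers summed to 1464 to 1650 CPM in AL + PBS, 1734 to 2221 in IF + PBS, 597 to 780 in AL + NaIO3 and 692 to 1551 in IF + NaIO3. The 11 neutrophil markers summed to 1.60 to 2.39 CPM in AL + PBS, 1.57 to 2.96 in IF + PBS, 4.14 to 7.60 in AL + NaIO3 and 1.58 to 3.22 in IF + NaIO3. Without Csf3r, which monocytes also express, the sums of the groups overlapped, with 0.384 to 0.879 CPM in IF + PBS and 0.792 to 1.74 CPM in IF + NaIO3.

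**Figure D3:**
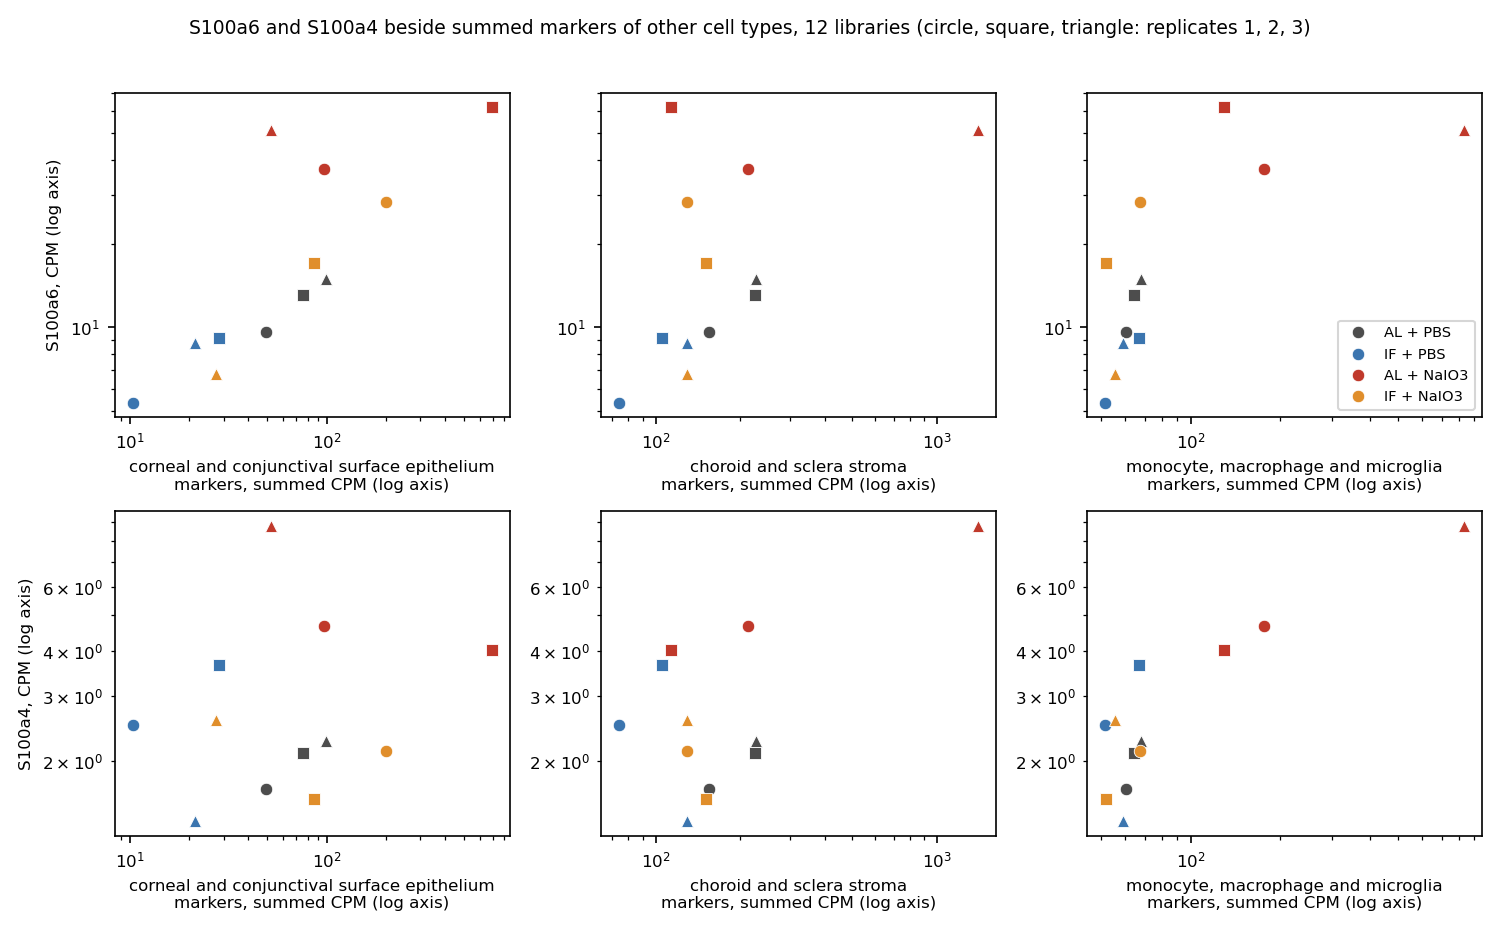
CPM of S100a6 (upper row) and S100a4 (lower row) on log y axes beside the summed CPM of 3 marker lists on log x axes in the 12 libraries. The point of AL + NaIO3 replicate 3 (red triangle) shows 51.4 CPM of S100a6 at 52.0 CPM of surface epithelium markers and at 1393 CPM of stroma markers. AL + NaIO3 replicate 2 had 62.0 CPM of S100a6 at 690 CPM of surface epithelium markers.

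S100 receptors and binding partners were read from lists of 8 and 10 genes. By edgeR none was called in the 4 comparisons or in the interaction, where 0% to 0.0769% of all genes were. In AL + NaIO3 against AL + PBS 3 receptor and 5 partner genes had an unadjusted p under 0.05 (against 10.2% of all genes), and DESeq2 called no receptor and 3 partner genes (against 2.63% of all genes). In IF + NaIO3 against AL + NaIO3 DESeq2 called 2 partner genes (against 3.05% of all genes), and in the remaining comparisons none of either list. In AL + NaIO3 against AL + PBS 6 of the 8 receptor genes and 8 of the 10 partner genes had a log2 fold change above 0, with medians of 0.70 and 0.59. Ager was at 0.378 to 1.08 CPM in the 12 libraries, with overlapping groups (log2 fold change 0.38 in AL + NaIO3 against AL + PBS, edgeR adjusted p = 0.836). Tlr4 had 1.60, 0.732 and 0.393 CPM in AL + PBS and 1.03, 2.10 and 6.80 CPM in AL + NaIO3, where replicate 3 alone was high (log2 fold change 1.87, SE 0.79, edgeR adjusted p = 0.475). Cd14, the co-receptor of Tlr4, had the largest change of the receptor list, 2.02, with a SE of 0.66 and an adjusted p of 0.350 from edgeR.

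Anxa2, the annexin that S100a10 pairs with, had 20.8, 26.5 and 24.7 CPM in AL + PBS, 16.4, 22.5 and 17.6 in IF + PBS, 36.1, 64.9 and 87.4 in AL + NaIO3 and 42.4, 27.5 and 17.9 in IF + NaIO3. AL + NaIO3 did not overlap AL + PBS. Anxa2 had the library order of S100a10 in AL + PBS and IF + NaIO3 but not in IF + PBS or AL + NaIO3. Its log2 fold change in AL + NaIO3 against AL + PBS was 1.39, the largest of the partner list (SE 0.29, edgeR adjusted p = 0.224). DESeq2 called Anxa2 there (against 2.63% of all genes). In IF + NaIO3 against AL + NaIO3 its log2 fold change was -1.11 (SE 0.38, edgeR adjusted p = 0.348), which neither tool called.

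The table holds 8 further S100 genes. S100a7l2 and S100z had 0 counts in the 12 libraries, and S100a2, S100a5, S100a7a and S100g had at most 25 counts in a library. S100a14, an epithelial member, had 1.15, 1.68 and 2.55 CPM in AL + PBS, 0.0960, 0.325 and 0.527 in IF + PBS, 3.24, 8.74 and 0.913 in AL + NaIO3 and 3.48, 1.49 and 0.723 in IF + NaIO3. It followed the order of the surface epithelium sum in AL + NaIO3, where replicate 3 was lowest in both. Its log2 fold change in AL + NaIO3 against AL + PBS was 1.26 (SE 0.74, edgeR adjusted p = 0.600), the larger of the 2 further genes tested there. In IF + PBS against AL + PBS it was -2.48 (SE 0.58, edgeR adjusted p = 0.175), which DESeq2 called, and in IF + NaIO3 against IF + PBS it was 2.58 (SE 0.70, edgeR adjusted p = 0.214), which neither tool called.

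Genes with the most similar pattern over the 12 libraries were sought for the 3 listed genes that varied most, by the root mean square difference of mean-centred log2 CPM among 15958 genes outside the family. For S100a6 they were Ifitm1 (0.398), an interferon-induced membrane protein, Snx31 (0.415), a sorting nexin, and Emp1 (0.450), an epithelial membrane protein. Emp1 had 11.1 to 22.7 CPM in AL + PBS, 4.45 to 9.45 in IF + PBS, 31.1 to 116 in AL + NaIO3 and 5.79 to 49.9 in IF + NaIO3, with its peak in the same library as S100a6. For S100a9, whose counts were at most 41, they were Rps27 (0.650), Septin5 (0.700) and B3galt4 (0.777), and for S100a8, with at most 15 counts, they included Syna (0.765) and Il20ra (0.815). Likeness to genes with so few counts is a weak description.

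Values of neighbouring genes on chromosome 3 were set beside those of the S100 genes. From 500 kb before S100a1 to 500 kb beyond S100a10, 23 tested genes outside the family had log2 fold changes with a median of 0.05 in AL + NaIO3 against AL + PBS, with 14 above 0 and 9 below. Most of the 23 lay before S100a1 and the rest in the gap between S100a9 and S100a11, so they did not flank the S100 genes evenly. The 23 genes ranged from -0.59 to 0.69, and the 8 tested listed genes there ranged from 0.48 to 2.01. In IF + NaIO3 against AL + NaIO3 the 23 genes had a median of 0.06 and the 8 genes one of -0.87. These medians are a description, since the 8 genes were chosen by name. The span of S100a4 overlaps Gm42674, which had 0 counts in each library, and that of S100b overlaps Dip2a, which had 1143 to 1816 counts, and how reads there were divided is uncertain.

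**Figure D4:**
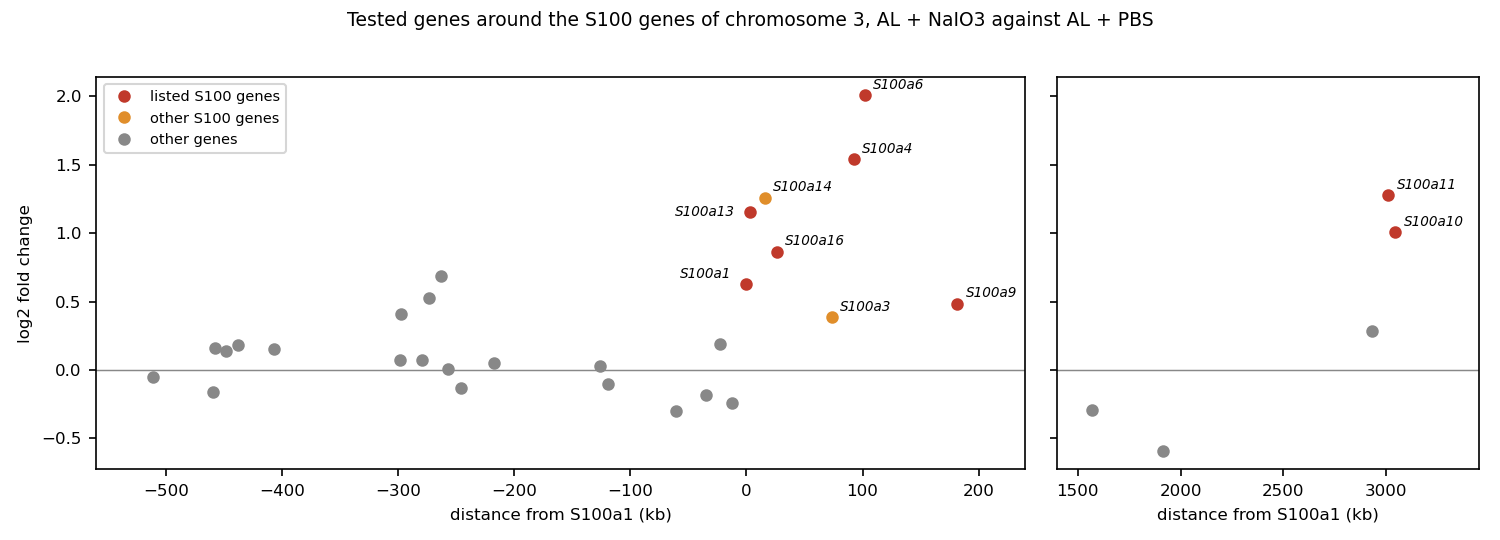
Log2 fold change from edgeR in AL + NaIO3 against AL + PBS (y axis) of tested genes on chromosome 3 by distance from S100a1 in kb (x axis, in 2 stretches). The 2 further S100 genes are in orange, the 8 listed S100 genes lie between 0.48 and 2.01 and the 23 genes outside the family between -0.59 and 0.69.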

How the data were processed

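Poly-A selected RNA of 12 mice (1 library each) was sequenced by the authors. Submitters' processing notes name HISAT2, StringTie, edgeR, DESeq2 and GRCm39, without versions. The deposited gene coordinates overlapped the same symbol in RefSeq GRCm38.p6 for 99.9% of 21221 matched genes and in GENCODE GRCm39 for 17.4% of 19667, so GRCm38 positions are given. The authors deposited whole-number read counts without normalization and, separately, FPKM values, which the methods call RPKM. How strand was used in counting is not given in the sources used here. A deposited table of the authors' comparison of IF + NaIO3 with AL + NaIO3 (fold changes, p-values, counts, means, FPKM and TPM) was not used. No sample column was left unmatched.

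Counts were scaled by TMM, filtered by filterByExpr and tested with edgeR 4.0.16 in R 4.3.3 (quasi-likelihood, 6 libraries per comparison, 12 for the interaction), with Benjamini-Hochberg adjustment over all genes tested. A call needed a change of at least 1.5-fold with an adjusted p below 0.05. CPM used TMM-scaled totals, with a prior count of 2 on the log2 scale for pattern likeness. Scripts were tested on simulated counts. Members, gene lists and tests were chosen with earlier results of these data known. Named genes were the 10 members, Ager, Tlr4, Anxa2, genes of the receptor, partner and further S100 lists that were called or changed most, the 3 genes nearest in pattern to each of the 3 most variable members, overlapping genes and the first marker of each list. Other names (Csf3r, Stfa2l1, Fgf1, Il1a, and the S100 genes at few counts) were chosen after their values were seen. Alternatives were DESeq2 1.42.0, upper quartile scaling, no filter, at least 10 counts in each library, the 12 libraries fitted together, a replicate block and leaving out each library. Neighbours on chromosome 3 and promoter motifs were described after the counts had been seen. No library pair of a group was a duplicate. Some genes that these rules name are not reported here.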

Additional observations from a re-analysis of the deposited data

Results flagged for a closer look

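The libraries of S100a1 were separated in opposite directions by NaIO3 in the 2 diets. Each AL + NaIO3 library (36.6 to 57.7 CPM) was above each AL + PBS library (28.0 to 33.2 CPM), and each IF + NaIO3 library (25.4 to 30.9 CPM) was below each IF + PBS library (33.7 to 37.7 CPM). Neither effect was called (edgeR adjusted p = 0.319 on AL and 0.226 on IF), and 9.80% and 10.7% of all genes were separated in those directions. The share of all genes separated in opposite directions in the 2 diets at once was not counted, so how unusual S100a1 is remains unknown. The same 12 values read by diet were lower on fasting after NaIO3 and higher on fasting after PBS, as were 10.2% and 10.3% of all genes. The difference between the effects was -0.97 on the log2 scale in both readings, with an adjusted p of 0.177 from edgeR and between 0.00996 and 0.457 over the alternatives. DESeq2 and the fit without AL + NaIO3 replicate 1 called it (adjusted p = 0.00996 and 0.0481). S100a1 was highest in AL + NaIO3 replicate 3, which also had the highest sum of stroma markers, and without it the difference was -0.78 (edgeR adjusted p = 0.124).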

How the results depend on the processing

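In AL + NaIO3 against AL + PBS edgeR called 1 of the listed genes, DESeq2 6, the fit of 12 libraries 3, and leaving out a library gave 0 to 2. The count was 0 without any single AL + PBS replicate or AL + NaIO3 replicate 2 and 2 without AL + NaIO3 replicate 3. Over all genes edgeR called 0 without any single AL + PBS replicate, 5 without AL + NaIO3 replicate 2 and 90 without AL + NaIO3 replicate 3. In IF + NaIO3 against AL + NaIO3 the counts were 0, 5 by DESeq2 and 2 by the 12-library fit. For the interaction they were 0, 1 by DESeq2, and 0 to 2 with a library left out (2 without AL + NaIO3 replicate 1). Of the alternative values of single genes, 548 kept their direction and side of the thresholds, 18 passed newly, 4 no longer passed and 10 changed sign, each of these with a library left out. Where the sign changed, the log2 fold changes ranged from -1.40 to 0.26 for S100a9 in IF + NaIO3 against AL + NaIO3. In IF + PBS against AL + PBS they ranged from -0.12 to 0.031 for S100a16 and from -0.057 to 0.62 for S100a4. In IF + NaIO3 against IF + PBS they ranged from -0.55 to 0.12 for S100a4, from -1.77 to 0.20 for S100a9, from -0.10 to 0.15 for S100a13 and from -0.10 to 0.062 for S100a16. Over all genes, DESeq2 called 411 where edgeR called 12 in the first comparison, and 478 against 6, 192 against 0 and 72 against 0 in the others, and 213 against 5 for the interaction. The cause was not tested.

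With a replicate block 1 listed gene, S100a6, was called in AL + NaIO3 against AL + PBS and 0 in the other comparisons. Over all genes the block gave 28, 28, 5 and 0 calls and 8 for the interaction. Deviations of same-numbered libraries correlated between -0.10 and 0.14, so the numbers were not taken as a pairing. The spread between 3 mice limits each comparison, and S100a8 and S100a9 also rest on few counts.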
